A study of Oryza sativa with 8 samples.

Results

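D62-A/MB is a cytoplasmic male sterile (CMS) line of rice that carries D-type cytoplasm in the nuclear background of Meixiang B (MB), and it was set against MB, the fertile maintainer line with its own cytoplasm. The comparison used 4 of the 8 arrays of the series: the 2 arrays labelled D62A and the 2 arrays of MB, chosen by their labelled line. The line was bred by repeated backcrossing with MB as the recurrent parent, so any donor segment of the nuclear genome left after backcrossing is part of the difference between the lines, beside the cytoplasm. The study's DNA markers found the nuclear genome incompletely replaced by that of MB in each CMS line. By the study's naming, replacement was most complete in XQZ-A/MB. Both lines were grown in the field in Wuhan without treatment, and material was taken when microspores had 1 nucleus. The sample labels name young panicles and the study's text names anthers. The other arrays belong to XQZ-A/MB (DA-type cytoplasm) and ZS97-A/MB (WA-type cytoplasm), which share the MB background.

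In CMS, the mitochondrial genome of a line disturbs the making of pollen while the nuclear genes stay those of a fertile parent, and a maintainer line supplies fertile pollen without restoring fertility. Pollen depends on the tapetum, the inner cell layer of the anther wall, which feeds the microspores, delivers lipids for the outer pollen wall and then degrades. Genes of the tapetum, of lipid transfer, of the cell wall and of sugar supply are therefore the groups usually examined in such lines.

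The labels need a caution before any value. Of 620 rows of differences in the study's own table, 2 could be matched to these arrays within 0.005 log2 units with the line names as labelled, and 588 with the names XQZ-A/MB and D62-A/MB exchanged. All groups below follow the array labels, so "D62-A/MB" means the arrays labelled D62A, and the arrays labelled XQZ-A/MB are given beside the main results. Which naming is right cannot be told apart with these arrays.

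Array medians were 7.94 and 20.0 intensity units in D62-A/MB and 7.86 and 20.6 in MB, for replicate 1 and replicate 2, so the replicate number moved the arrays more than the line did. Between 42.7% and 65.2% of the probes of these 4 arrays lay at or below 16 units, which was used as a floor. Array intensities were set to at least 16 and transformed to log2, and each difference was taken between arrays of the same replicate number. Of 40832 probes, the 20416 with the higher mean were tested with limma in a fit that holds a replicate term, and 10096 genes were represented among them by their brightest probe. The study's methods call the replicates biological, while the labels do not tie them to separate plants or plots, so the p-values cover the spread between these arrays, and 2 arrays per line limit every value.

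For most genes the difference between D62-A/MB and MB was bounded within 2-fold. Of the 10096 genes tested, 8183 (81.1%) had a 95% interval of the D62-A/MB minus MB difference that lay wholly within 2-fold, genes near the floor included, and the median difference was 0.02 on the log2 scale. Where both arrays of a replicate number lie under 16, the floor itself sets their difference to none. Part of this share, and of the interval counts of the lists below, is therefore fixed by the floor. At the methods' threshold (adjusted p under 0.01, difference of at least 2-fold) limma called 0 probes (percent called 0), although 4215 of the 20416 probes had an unadjusted p under 0.05 and the lowest adjusted p was 0.0112. At the second threshold, an adjusted p under 0.05 and 2-fold, 239 probes (1.17%) were lower and 65 (0.318%) were higher in D62-A/MB. In genes, 156 (1.55%) were lower and 40 (0.396%) were higher, with median log2 differences of -1.42 and 1.16. The text below calls a gene lower or higher only by this second threshold and gives plain values otherwise. Counts of lower or higher genes in any list are to be read against these shares of all genes tested, 1.55% and 0.396%. The lists were chosen with earlier results of these data known, so such counts describe the lists and test nothing.

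These calls depended on which arrays were in the fit. At the second threshold, where 304 probes were called with all arrays, 0 probes were called without D62-A/MB replicate 2 or without any 1 array of XQZ-A/MB or ZS97-A/MB, 1 without MB replicate 2, 199 without D62-A/MB replicate 1 and 661 without MB replicate 1. Without the replicate term limma called 0 probes at either threshold, against 751 with an unadjusted p under 0.05.

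Counted without a test, 241 of all 40832 probes (0.59%) were at least 2-fold lower in D62-A/MB than in MB in both replicate numbers, and 64 (0.157%) were at least 2-fold higher. In genes the counts were 158 lower (1.08%) and 37 higher (0.252%). By single replicate number, 721 probes were 2-fold lower in replicate 1 and 714 in replicate 2, while 140 were 2-fold higher in replicate 1 and 699 in replicate 2. Opposite 2-fold differences in the 2 replicate numbers were seen at 17 probes.

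The lowest difference of any gene with a symbol was that of a tapetum gene. OsC6, a lipid transfer protein of the tapetum that takes part in building the pollen wall, had 32.1 and 84.9 units in D62-A/MB, against 415 and 2063 units in MB. Both D62-A/MB arrays lay far under both MB arrays, a difference of 17.7-fold (log2 -4.15, SE 0.37, adjusted p = 0.0207). OsC4, an anther gene of the same protein class, had 138 and 260 units in D62-A/MB and 661 and 1263 units in MB. The D62-A/MB arrays were again below both MB arrays, by 4.83-fold (log2 -2.27, SE 0.22, adjusted p = 0.0212). In a bulk sample, fewer tapetum cells and less RNA per tapetum cell cannot be told apart.

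Other members of the tapetum and pollen wall list did not pass. Of 12 genes with a probe, 8 were tested, 2 were lower, 0 were higher, and the median log2 difference was -0.39. Over all genes tested, 1.55% were lower and the median was 0.02. CHS1, a chalcone synthase gene, had 6.88 and 16.8 units in D62-A/MB and 24.9 and 118 in MB. With D62-A/MB replicate 1 under the floor, its difference was clipped (log2 -1.73 or lower, adjusted p = 0.154). TDR, a transcription factor of tapetum degeneration, had 4.63 and 12 units in D62-A/MB and 15 and 53.0 in MB, so that MB replicate 2 alone was above the floor, and it was not among the probes tested. GAMYB, a gibberellin-dependent regulator of anther development, had 150.0 and 209 units in D62-A/MB and 168 and 188 in MB, which overlapped (log2 -0.01, 95% interval within 2-fold). MTR1, a secreted protein of the developing microspores, overlapped as well, with 183 and 277 units in D62-A/MB and 228 and 224 in MB.

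The lower tapetum values can be read beside the markers of other tissues. The summed intensity of the 5 tapetum markers with a probe (OsC4, OsC6, TDR, PTC1 and UDT1) was 181.0 and 373.8 in D62-A/MB, against 1105 and 3410 in MB, and 1 of the 5 was at or below 16 on all 4 arrays. OsC4 and OsC6, the 2 lower genes above, made up most of each sum. The tapetum sums therefore restate those calls and give no separate value for the tissue. The 9 green tissue markers summed to 182.5 and 510.2 in D62-A/MB and 231.3 and 671.9 in MB, with 0 called. The 6 markers of lemma, palea and lodicule summed to 1092 and 1570 in D62-A/MB and 1416 and 2098 in MB, with 1 called lower, MADS16. The list also holds class B genes that stamens express. Carpel markers, DL and MADS21 (the last at or below 16 on all 4 arrays), summed to 38.62 and 72.56 in D62-A/MB and 46.89 and 100.1 in MB, and the 4 meiocyte markers, of which 2 were at or below 16 on all 4 arrays, to 25.73 and 62.22 in D62-A/MB and 34.51 and 52.98 in MB. The part of these tissue values in the lower calls was not tested.

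**Figure D1:**
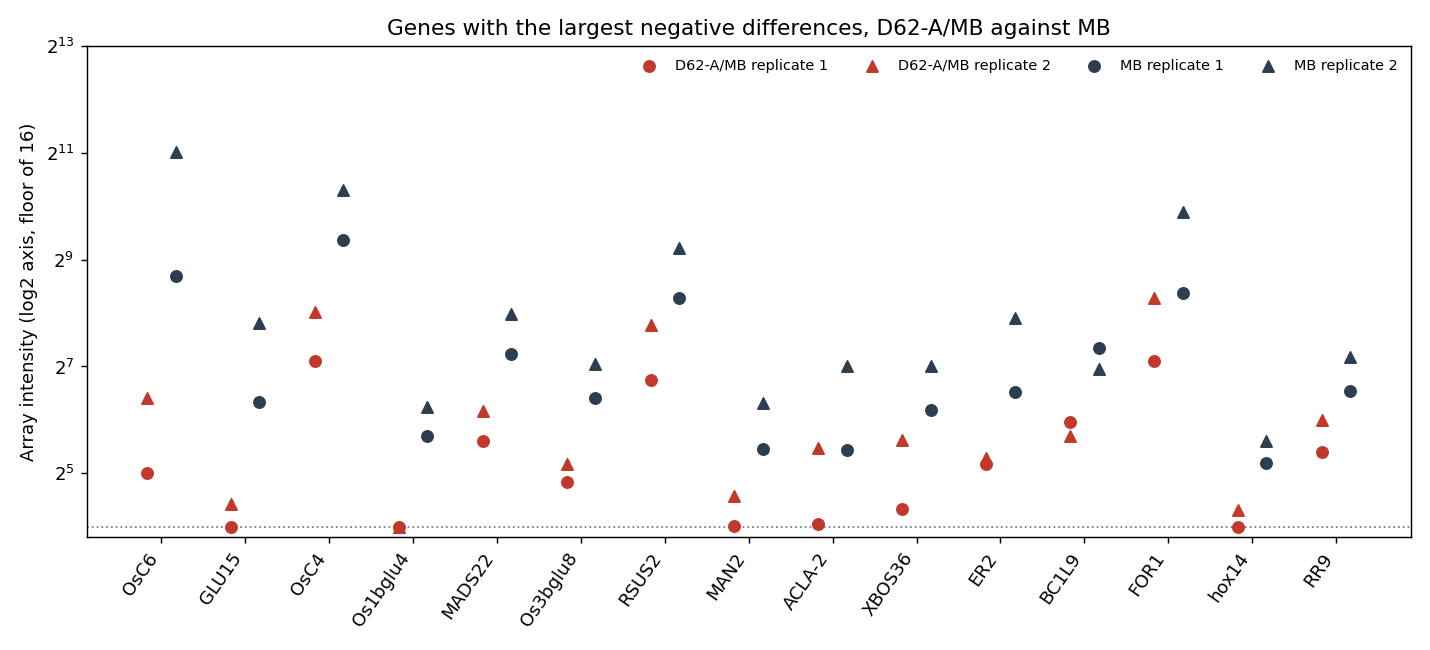
Array intensity (log2 axis, with values under 16 drawn at 16) of the 15 genes with a symbol that had the largest negative difference in both replicate numbers. Red marks are the 2 D62-A/MB arrays and dark marks the 2 MB arrays, circles for replicate 1 and triangles for replicate 2. For OsC6 the D62-A/MB arrays sit at 32.1 and 84.9 and the MB arrays at 415 and 2063, and both Os1bglu4 arrays of D62-A/MB lie at the floor.

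Enzymes that act on cell wall sugars and glycosides formed the next group. GLU15, an endoglucanase of the family that cuts cellulose-like chains, had 5.08 and 21.4 units in D62-A/MB and 81.2 and 226 in MB. With 1 D62-A/MB array at the floor, the floored difference was 7.33-fold (log2 -2.87, SE 0.32, adjusted p = 0.0221). Os1bglu4, a beta-glucosidase of glycoside hydrolase family 1, had 13.7 and 10.5 units in D62-A/MB, both under the floor, and 51.8 and 75.5 in MB. It was at least 3.91-fold lower in D62-A/MB (adjusted p = 0.0205). The other CMS arrays were under the floor as well, so this adjusted p is partly set by the floor. Os3bglu8 of the same family had 28.6 and 35.9 units in D62-A/MB and 85.4 and 132 in MB, 3.32-fold lower without overlap (adjusted p = 0.0205). Os4bglu16 had 19.1 and 33.3 units in D62-A/MB and 75.0 and 62.3 in MB (log2 -1.44, adjusted p = 0.0483). In all, 3 of the 11 beta-glucosidases tested were lower and 0 higher, where 1.55% of all genes tested were lower. The list's median was -0.23 (-0.96 in replicate 1 and -0.07 in replicate 2), against 0.02 over all genes. Because the list was chosen with earlier results of these data known, its count is a description only.

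In the cellulose and glucan list, 2 of 23 tested genes were lower, GLU15 and BC1L9, and 0 were higher, with a median of -0.05. For this list and the expansins, the share of all genes tested that were lower was 1.55%. BC1L9, a COBRA-like protein of the cell surface, had 62.2 and 51.7 units in D62-A/MB and 163 and 124 in MB (log2 -1.32, SE 0.15, adjusted p = 0.0229). Expansins, which loosen the cell wall, had 1 of 22 lower, EXPA2, with 19.9 and 38.1 units in D62-A/MB and 37.1 and 83.8 in MB (log2 -1.02, adjusted p = 0.0317). Its groups overlapped across replicate numbers, since D62-A/MB replicate 2 was above MB replicate 1. MAN2, a mannanase, had 16.1 and 23.9 units in D62-A/MB and 43.6 and 79.9 in MB, but its error was wide (log2 -1.59, 95% interval -2.89 to -0.29, adjusted p = 0.166).

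Sugar and lipid genes were lower in single members. RSUS2, a sucrose synthase that splits sucrose for use by the cell, had 107 and 218 units in D62-A/MB and 313 and 592 in MB. All D62-A/MB values lay under all MB values, by 2.82-fold (log2 -1.5, SE 0.21, adjusted p = 0.0326). SWEET15, a sugar exporter of the plasma membrane, had 46.8 and 91.6 units in D62-A/MB and 145 and 163 in MB (log2 -1.23, adjusted p = 0.0463). The sugar and starch list had 2 of 29 lower, these 2, and 0 higher, with a median of -0.25. Both replicate numbers were negative at 14 of its genes and positive at 1. Over all 10096 genes tested, 2304 were negative and 3188 positive in both.

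ACLA-2, a subunit of ATP-citrate lyase, which makes acetyl-CoA for lipid synthesis in the cytosol, had 16.6 and 44.5 units in D62-A/MB and 43.3 and 128 in MB (log2 -1.45, SE 0.20, adjusted p = 0.0322). The partner subunit gene ACLB-1 had a log2 difference of -0.79 with an adjusted p of 0.0386, under 2-fold. The phospholipase gene pla2-II had 36.1 and 115 units in D62-A/MB and 83.0 and 239 in MB (log2 -1.13, adjusted p = 0.0221). Of the 20 lipid transfer and lipid enzyme genes tested, 2 were lower and 0 higher, and the median of -0.41, against 0.02 over all genes, was the lowest of the 28 lists, except after quantile normalization or median scaling, when the beta-glucosidases (-0.60 and -0.57) and the tapetum and pollen wall list (-0.44 and -0.50) were lower than it (-0.37 and -0.47). In ACLA-2 and pla2-II alike, D62-A/MB replicate 2 lay above MB replicate 1, so the groups were apart within replicate numbers but not across them. Smt1-1, a sterol methyltransferase, was lower as well, with 28.7 and 42.1 units in D62-A/MB and 66.4 and 76.8 in MB (log2 -1.04, adjusted p = 0.0338).

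Flower and homeobox regulators followed. MADS22, a MADS-box factor of the clade that acts early in inflorescence meristems, had 48.4 and 71.8 units in D62-A/MB and 151 and 252 in MB. The groups did not overlap, and the difference was 3.31-fold (log2 -1.73, SE 0.21, adjusted p = 0.0238). MADS16, the class B factor that gives stamens and lodicules their identity, had 194 and 288 units in D62-A/MB and 381 and 807 in MB (log2 -1.23, SE 0.16, adjusted p = 0.0274). These were 2 of 15 MADS-box genes and DL tested, with 0 higher and a list median of -0.21. Other organ identity genes showed small differences: MADS2, a class B factor of the PISTILLATA type, had 362 and 555 units in D62-A/MB and 471 and 628 in MB (log2 -0.28, 95% interval -0.67 to 0.12). MADS1, which specifies lemma and palea, had 172 and 292 units in D62-A/MB and 219 and 212 in MB (log2 0.06, 95% interval -0.55 to 0.67). MADS30 went the other way without passing, with 39.5 and 60.4 units in D62-A/MB and 19.7 and 18.2 in MB (log2 1.36, adjusted p = 0.0715).

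Of the homeobox genes, 2 of 30 were lower, both of the HD-Zip class, and 0 higher, where 1.55% of all genes tested were lower. The gene hox14 had 10.5 and 19.8 units in D62-A/MB and 36.8 and 48.4 in MB, with 1 D62-A/MB array at the floor (log2 -1.25, adjusted p = 0.0229). HOX24 had 25.2 and 38.8 units in D62-A/MB and 46.1 and 98.7 in MB (log2 -1.11, adjusted p = 0.0322). The list median was -0.02, close to the 0.02 of all genes.

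Hormone and stress genes were lower one at a time. NCED3, whose enzyme makes the first committed step to abscisic acid, had 50.5 and 161 units in D62-A/MB and 274 and 352 in MB (log2 -1.78, SE 0.29, adjusted p = 0.0439). It was the only 1 of 17 abscisic acid genes tested that was called, and the list median was -0.36. Over all genes tested 1.55% were lower, so single calls in lists of this size say little about the list. OSPIN10a, an auxin efflux carrier, had 16.3 and 32.2 units in D62-A/MB and 60.3 and 67.0 in MB (log2 -1.47, adjusted p = 0.0322), 1 of 34 auxin genes tested (list median -0.26). GH3.5, an enzyme that conjugates auxin, had 46.8 and 94.9 units in D62-A/MB and 99.2 and 239 in MB and narrowly missed the threshold (log2 -1.21, adjusted p = 0.0556). Among 18 cytokinin genes 0 were called, and RR9, a type-A response regulator, had 42.0 and 64.3 units in D62-A/MB and 92.7 and 145 in MB (log2 -1.16, adjusted p = 0.0632).

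DREB1F, a factor of the cold and drought response, had 34.3 and 49.1 units in D62-A/MB and 86.1 and 103 in MB (log2 -1.20, adjusted p = 0.0221). HSF11, a heat shock factor, had 16 and 36.2 units in D62-A/MB and 42.1 and 68.7 in MB (log2 -1.16, adjusted p = 0.0345). They were the single called genes of their lists, of 17 and 33 tested. No gene of the jasmonate (17 tested), aquaporin (13), potassium (17) or protein phosphatase 2C (41) lists was called, where 1.94% of all genes tested were called in either direction. The differences of the jasmonate genes ran between -0.51 and 0.54.

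The remaining lower genes came from no list. XBOS36, an ankyrin and RING protein of the ubiquitin ligase class, had 20.1 and 49.4 units in D62-A/MB and 72.8 and 128 in MB (log2 -1.62, SE 0.16, adjusted p = 0.0212). ER2 had 36.0 and 39.2 units in D62-A/MB and 91.3 and 241 in MB (log2 -1.98, SE 0.29, adjusted p = 0.0342). FOR1 (LOC4343645, a name that another gene shares) had 138 and 312 units in D62-A/MB and 330.0 and 946 in MB (log2 -1.43, adjusted p = 0.0352). In all, 29 genes with a symbol were lower. The 5 not yet named, which were picked out after their values were seen, were Dhn1, a dehydrin, with a log2 difference of -1.31, PHY18 with -1.22, MFT1 with -1.17, PM1 with -1.06 and SAT1 with -1.06.

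Genes without a symbol included differences as large as that of OsC6. LOC4328039 had 4.73 and 11.7 units in D62-A/MB, both under the floor, and 218 and 376 in MB, so it was at least 17.9-fold lower (adjusted p = 0.0112, the lowest of the comparison and shared with LOC9267479). For LOC4328039 all arrays of the CMS lines lay under the floor, so only the MB arrays added spread to its fit. Its adjusted p is therefore partly set by the floor. LOC4346354 had 36.0 and 60.3 units in D62-A/MB and 446 and 1618 in MB, 18.2-fold lower (log2 -4.19, SE 0.27, adjusted p = 0.0129). Both are protein-coding in RefSeq, and no role is given to them in the annotation used.

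On the higher side, 2 genes with a symbol passed. WRKY76, a WRKY factor known from defence responses, had 69.1 and 102 units in D62-A/MB and 24.4 and 27.4 in MB, 3.24-fold higher without overlap (log2 1.70, SE 0.27, adjusted p = 0.0416). It was 1 of 6 WRKY genes tested, and WRKY62 had a log2 difference of 1.45 with an adjusted p of 0.249. OsCASPL5B2, a membrane protein of the Casparian strip domain family, had 43.4 and 62.7 units in D62-A/MB and 20.7 and 15.4 in MB (log2 1.52, SE 0.26, adjusted p = 0.0486). Of the genes without a symbol, LOC4339793 had 289 and 207 units in D62-A/MB and 72.0 and 64.2 in MB (log2 1.85, SE 0.16, adjusted p = 0.0205). LOC4328219 had 195 and 226 units in D62-A/MB and 60.8 and 63.5 in MB (log2 1.76, SE 0.21, adjusted p = 0.0238). In all 4 genes both D62-A/MB arrays were above both MB arrays. They were picked by their calls and differences, so this separation follows largely from the choice and is no added support. The share of all genes with such separation was not counted.

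**Figure D2:**
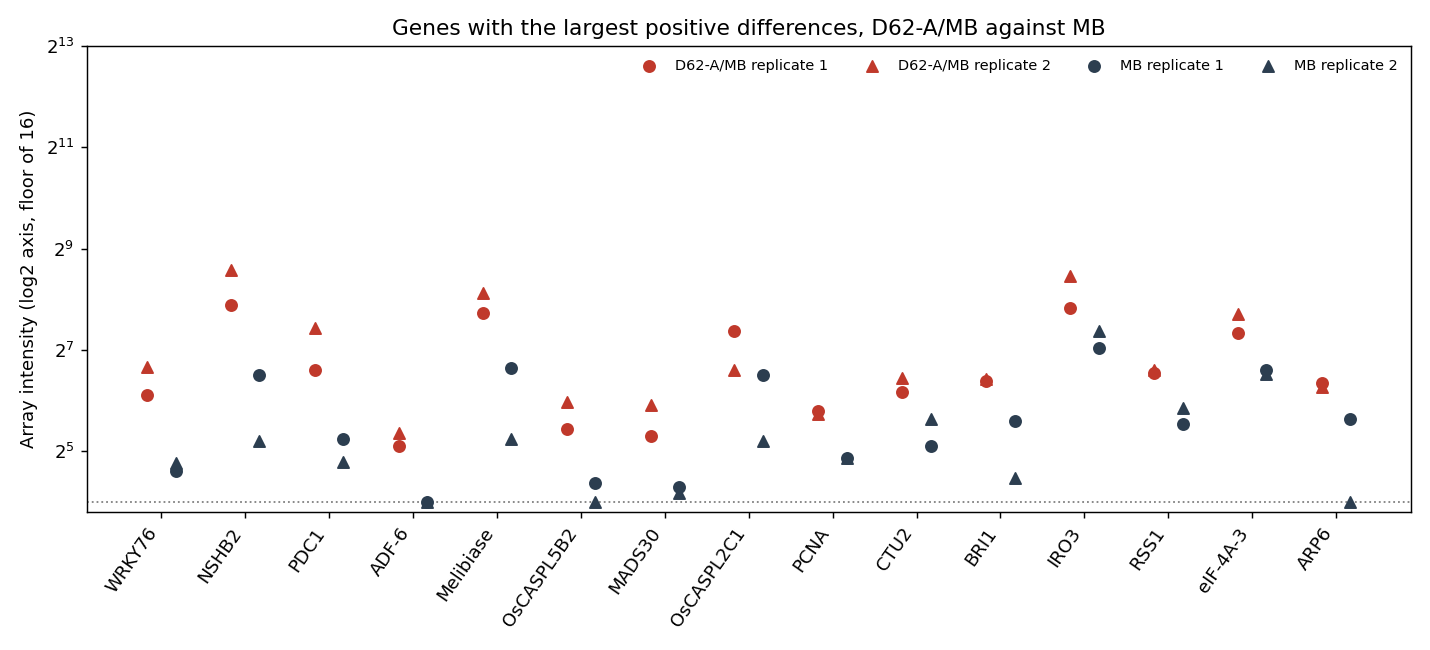
Array intensity (log2 axis, with values under 16 drawn at 16) of the 15 genes with a symbol that had the largest positive difference in both replicate numbers, drawn as for the lower genes. WRKY76 has D62-A/MB arrays at 69.1 and 102 and MB arrays at 24.4 and 27.4, and for NSHB2 the MB arrays lie apart from each other at 91.2 and 36.8.

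Several other genes had 2-fold or larger positive means that did not pass. NSHB2, a non-symbiotic haemoglobin, had 237 and 383 units in D62-A/MB and 91.2 and 36.8 in MB (log2 2.38, SE 0.49, adjusted p = 0.0638). PDC1, pyruvate decarboxylase, the first enzyme of ethanol fermentation, had 97.5 and 174 units in D62-A/MB and 37.7 and 27.7 in MB (log2 2.01, SE 0.51, adjusted p = 0.0951). Melibiase, an alpha-galactosidase gene, had 212 and 279 units in D62-A/MB and 100 and 37.9 in MB (log2 1.98, adjusted p = 0.0873). BRI1, the brassinosteroid receptor, had 83.9 and 86.0 units in D62-A/MB and 48.3 and 22.3 in MB (log2 1.37, adjusted p = 0.0731), and ARP6, an actin-related protein, 81.1 and 77.3 in D62-A/MB and 50.1 and 15.2 in MB (log2 1.48, adjusted p = 0.0847). In each of these 5 genes the difference was smaller in replicate 1 than in replicate 2.

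Smaller positive differences repeated more closely. PCNA, the sliding clamp of DNA replication, had 55.6 and 53.5 units in D62-A/MB and 29.3 and 29.4 in MB (log2 0.89, SE 0.12, adjusted p = 0.0322). RSS1, a cell cycle regulator under salt stress, had 93.0 and 97.7 units in D62-A/MB and 46.5 and 58.2 in MB (log2 0.87, SE 0.13, adjusted p = 0.0340). IRO3, an iron-responsive bHLH factor, had 226 and 352 units in D62-A/MB and 131 and 167 in MB (log2 0.93, SE 0.15, adjusted p = 0.0422). These 3 passed the adjusted p but not the 2-fold limit. The other genes of the ranked 15 were CTU2 (log2 0.93, adjusted p = 0.0540), eIF-4A-3 (0.95, adjusted p = 0.0720), ADF-6 (1.24, adjusted p = 0.111, with both MB arrays under the floor) and OsCASPL2C1 (1.13, adjusted p = 0.119).

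Several lists gave no call in D62-A/MB, which is to be read against the share of all genes tested: 196 of 10096 (1.94%) were called in either direction, 81.1% had an interval within 2-fold and 25.2% had an unadjusted p under 0.05. Lists of this size would hold about 1 call or none at that share. Of 46 redox genes tested 0 were called, and 44 had a 95% interval wholly within 2-fold. The same held for 47 of 56 calcium genes, 27 of 31 cell cycle genes, 34 of 41 protein phosphatases 2C, 17 of 21 phenylpropanoid genes and 16 of 17 jasmonate genes, with 0 called in each list. At an unadjusted p under 0.05, limma gave 12 of the redox genes, 12 of the calcium genes, 3 of the cell cycle genes, 14 of the protein phosphatases 2C, 4 of the phenylpropanoid genes and 6 of the jasmonate genes. Some lists with 0 called were less well bounded. Intervals lay within 2-fold at 22 of 31 metal genes, whose differences ran between -1.65 and 1.67, and at 10 of 18 cytokinin genes. Meiosis genes had 0 of 7 called and 6 intervals within 2-fold, photosynthesis genes 0 of 10 and 8, and genes of mitochondria and energy 0 of 23 and 18. The median of the last list was 0.19, and VDAC2, a channel of the mitochondrial outer membrane, had a log2 difference of 0.64 (adjusted p = 0.0906). The 43 housekeeping genes had 0 called, 32 intervals within 2-fold and a median of 0.35, against 0.02 over all genes. Of these genes, 29 were positive and 3 negative in both replicate numbers, against 3188 and 2304 of the 10096 tested. The housekeeping median was 0.36 after quantile normalization and 0.29 after median scaling.

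**Figure D3:**
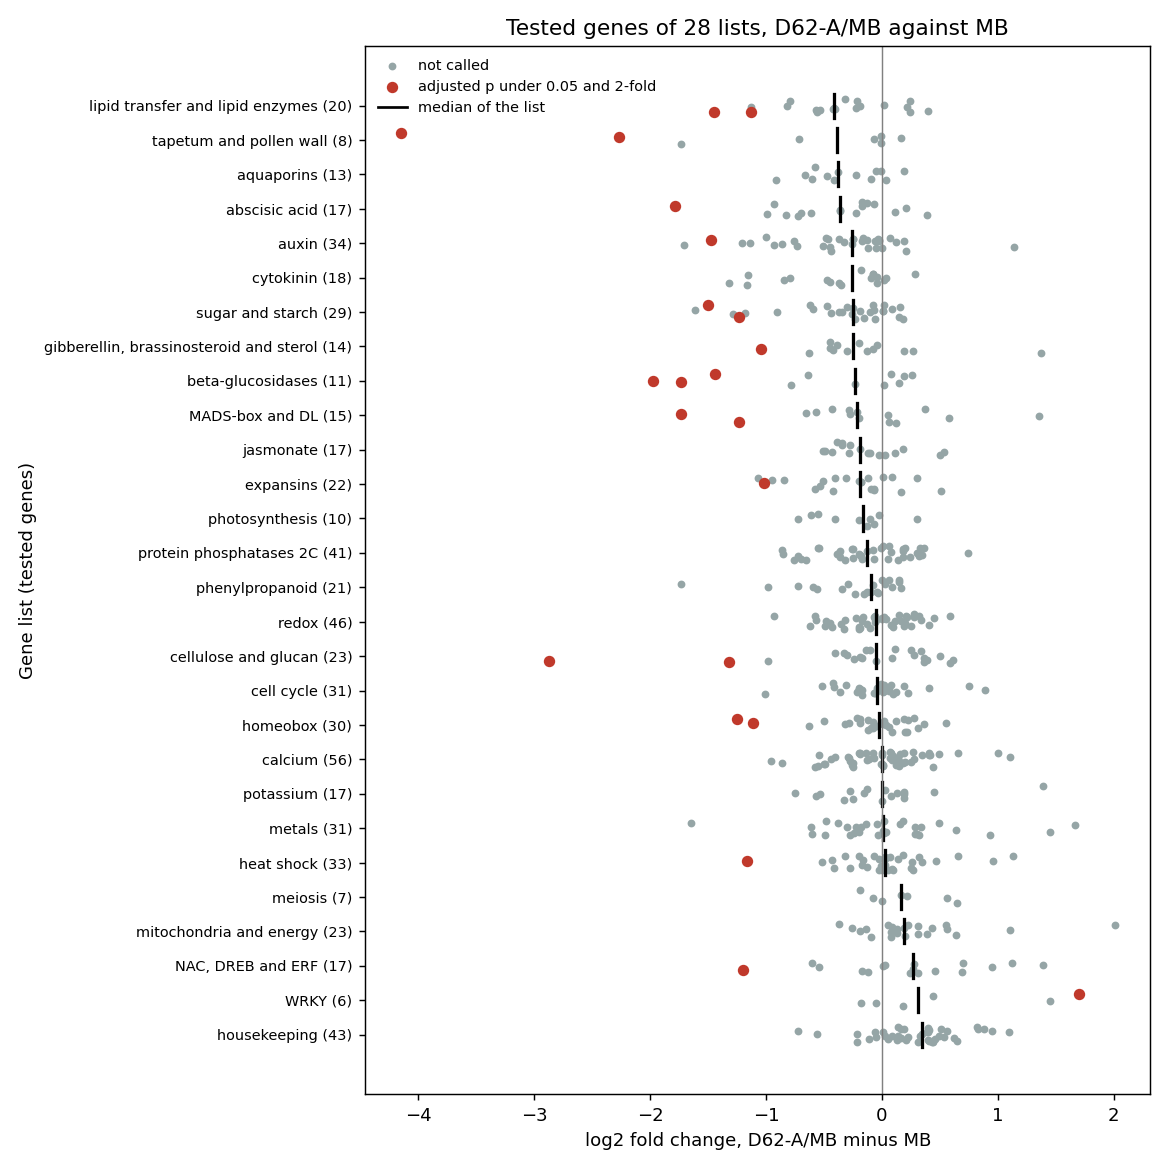
Log2 fold change of D62-A/MB minus MB for the tested genes of 28 gene lists, 1 point per gene, with the number of tested genes in brackets and a black bar at the list median. Red points passed an adjusted p under 0.05 and 2-fold. List medians run between -0.41 for lipid transfer and lipid enzymes and 0.35 for housekeeping genes, and OsC6 is the leftmost point at -4.15.

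The other CMS lines were measured on the same array type, and their differences from MB use the same MB arrays, so they are given side by side only. At the second threshold XQZ-A/MB had 603 probes lower (2.95%) and 150 higher (0.735%) than MB, and ZS97-A/MB 343 lower (1.68%) and 458 higher (2.24%). OsC6 had log2 differences from MB of -4.15 in D62-A/MB, -4.27 in XQZ-A/MB and -4.20 in ZS97-A/MB. OsC4 had -2.27 in D62-A/MB, -4.15 in XQZ-A/MB and -2.79 in ZS97-A/MB, with 33.7 and 78.0 units on the XQZ-A/MB arrays. MADS16 had -1.23 in D62-A/MB, -1.18 in XQZ-A/MB and -0.79 in ZS97-A/MB, and RSUS2 had -1.5 in D62-A/MB, -1.31 in XQZ-A/MB and -1.46 in ZS97-A/MB. XBOS36 had -1.62 in D62-A/MB, -2.14 in XQZ-A/MB and -0.33 in ZS97-A/MB. WRKY76 had 1.70 in D62-A/MB, 0.87 in XQZ-A/MB and 0.00 in ZS97-A/MB.

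**Figure D4:**
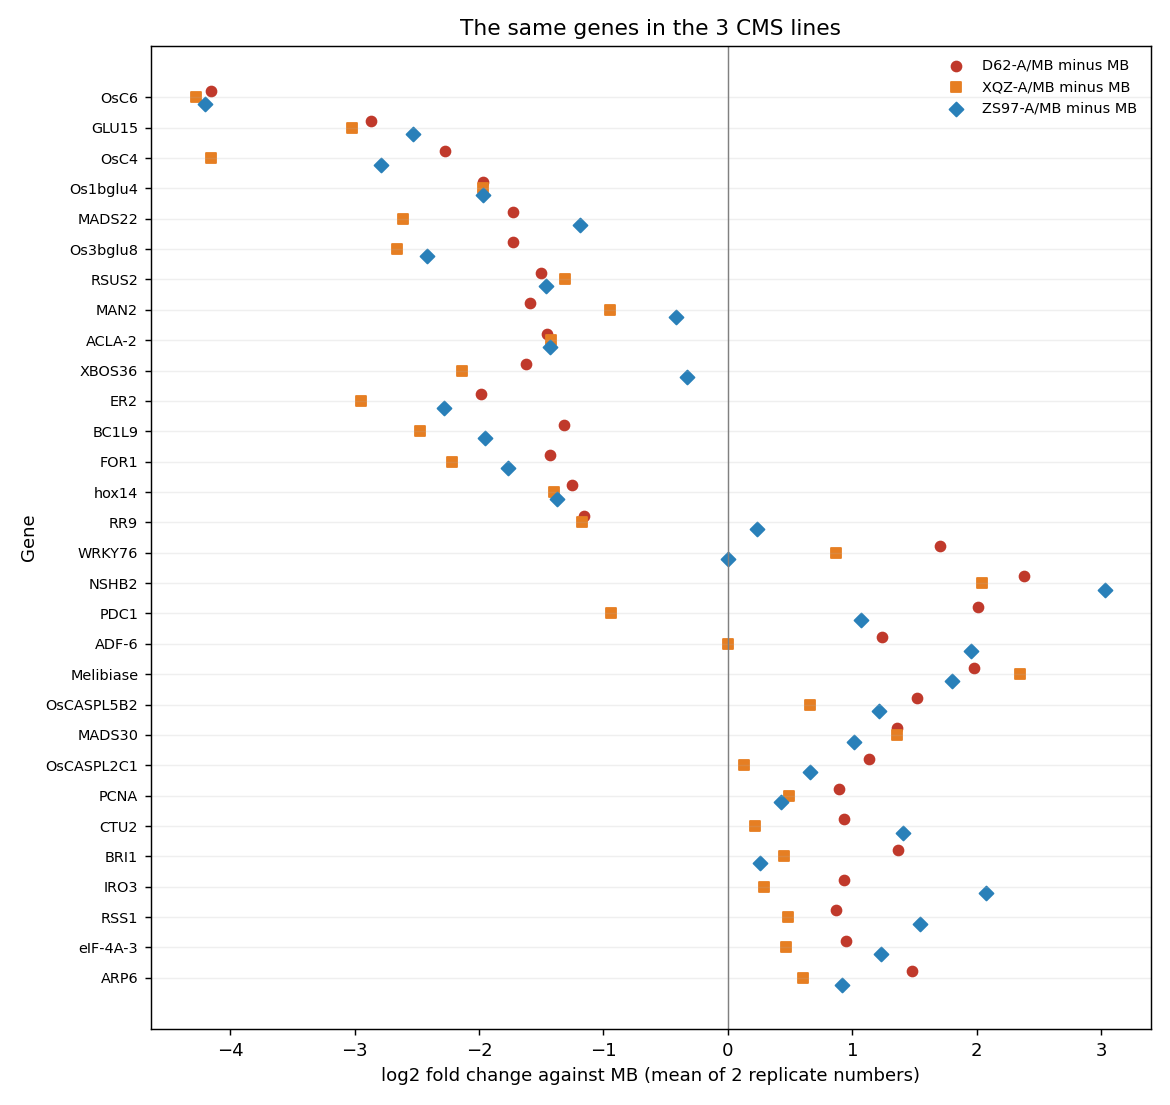
Log2 fold change against MB of the 30 ranked genes in D62-A/MB (red circles), XQZ-A/MB (orange squares) and ZS97-A/MB (blue diamonds), each the mean of 2 replicate numbers and each using the same MB arrays. OsC6 is at -4.15, -4.27 and -4.20 in the 3 lines, and PDC1 is at 2.01 in D62-A/MB, against -0.94 for XQZ-A/MB.

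Whether D62-A/MB differs from the other CMS lines was tested directly, as D62-A/MB minus the mean of XQZ-A/MB and ZS97-A/MB. No MB value enters this difference, although the MB arrays enter the fit's estimate of the spread. Limma called 0 of 20416 probes (percent called 0) at either threshold, with 1778 at an unadjusted p under 0.05 and a lowest adjusted p of 0.206. The 95% interval lay within 2-fold at 9378 of the 10096 genes (92.9%), a share that is again partly fixed by the floor. A mean of 2 lines can hide opposite differences from each. Against each line alone limma also called 0 probes at either threshold. At an unadjusted p under 0.05 there were 2775 probes against XQZ-A/MB and 2756 against ZS97-A/MB. Without D62-A/MB replicate 1, 58 probes passed an adjusted p under 0.01 and 2-fold, 31 lower and 27 higher. Across both replicate numbers, 1 probe was at least 2-fold lower and 3 were at least 2-fold higher in D62-A/MB than in each of the other 2 lines, and none of the values below passed the test.

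The genes given next are a selection with differences on both sides, not ranked by p. Some genes outside it had lower adjusted p in limma than several within it. DREB1F differed from the other CMS lines by 0.91 log2 units (95% interval 0.62 to 1.19, adjusted p = 0.206). LOC4326815, which has no symbol, differed by -0.84 (-1.09 to -0.59, adjusted p = 0.206). OsC4 had a difference of 1.20 log2 units from the other CMS lines (95% interval 0.73 to 1.67, adjusted p = 0.221), while OsC6 differed by 0.08 (95% interval -0.69 to 0.86). Os3bglu8 differed by 0.81 (0.50 to 1.12, adjusted p = 0.221) and BC1L9 by 0.89 (0.56 to 1.21, adjusted p = 0.209). Os3bglu8 and BC1L9 thus had values in D62-A/MB between those of the other CMS lines and MB. Other lower wall genes did not share this. GLU15 differed by -0.10 (-0.78 to 0.58), Os4bglu16 by -0.17 (-0.69 to 0.36) and EXPA2 by 0.15 (-0.14 to 0.45). Os1bglu4 was under the floor on all arrays of the CMS lines. EXPB4, a beta-expansin, had 286 and 794 units in D62-A/MB, 207 and 465 on the XQZ-A/MB arrays, 117 and 217 on the ZS97-A/MB arrays and 371 and 808 in MB, a difference of 1.10 from the other CMS lines (0.76 to 1.44, adjusted p = 0.206). EXPA4, an alpha-expansin, differed by 1.03 (0.58 to 1.47, adjusted p = 0.232), and NIP1-1, an aquaporin of the nodulin type, by 0.99 (0.56 to 1.42, adjusted p = 0.232). WRKY76 differed by 1.26 (0.69 to 1.84, adjusted p = 0.260).

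In the lower direction, SUS4, a sucrose synthase gene, had 84.1 and 90.1 units in D62-A/MB, 120.0 and 138 on the XQZ-A/MB arrays, 151 and 187 on the ZS97-A/MB arrays and 87.2 and 94.3 on the MB arrays. Its difference from the other CMS lines was -0.75 (95% interval -1.01 to -0.50, adjusted p = 0.206). ACC2 differed by -0.94 (-1.25 to -0.64, adjusted p = 0.206) and CML21, a calmodulin-like protein, by -0.95 (-1.52 to -0.38, adjusted p = 0.342). TGAL7, a TGA-type bZIP factor, was the gene with a symbol that stood at least 2-fold above MB in both replicate numbers of both other CMS lines while it lay within 0.5 log2 units of MB in D62-A/MB. It had 48.1 and 72.3 units in D62-A/MB, 78.9 and 129 on the XQZ-A/MB arrays, 90.6 and 122 on the ZS97-A/MB arrays and 35.6 and 57.4 in MB (D62-A/MB minus the other CMS lines -0.80, 95% interval -1.07 to -0.54, adjusted p = 0.206). No gene with a symbol showed the reverse pattern.

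**Figure D5:**
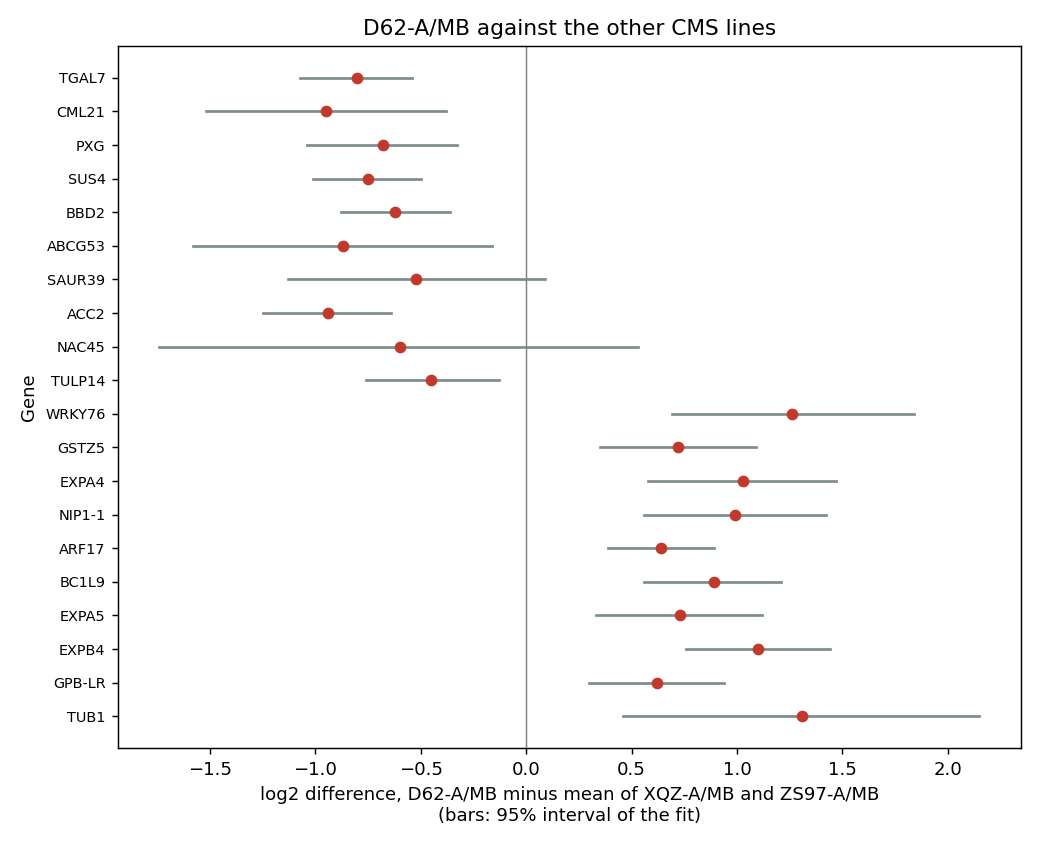
Log2 difference of D62-A/MB minus the mean of XQZ-A/MB and ZS97-A/MB for the 10 genes with a symbol ranked lowest and the 10 ranked highest by their smallest difference over both lines and both replicate numbers. Points are the fitted differences and bars their 95% intervals. EXPB4 is at 1.10 (0.76 to 1.44) and TGAL7 at -0.80 (-1.07 to -0.54), and no adjusted p in this comparison was under 0.206.

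LOC4336348, which has no symbol, lay near MB in D62-A/MB and lower in the other lines, with 190.0 and 259 units in D62-A/MB, 74.4 and 97.9 on the XQZ-A/MB arrays, 50.7 and 102 on the ZS97-A/MB arrays and 261 and 282 in MB. Its difference from the other CMS lines was 1.5 (95% interval 1.05 to 1.95, adjusted p = 0.206). LOC4349612 was the second highest gene by the same ranking, at 1.77 (0.48 to 3.06, adjusted p = 0.424), and its groups interleaved, with 53.9 and 143 units in D62-A/MB and 134 and 46.9 in MB.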

How the data were processed

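RNA of D62-A/MB, XQZ-A/MB, ZS97-A/MB and MB was measured on 8 rice gene arrays, 2 per line. The deposited values are linear array intensities made by the authors; MAS5 is given in the labels and Robust Multichip Analysis in the published methods, and versions are not given in the sources used here. A deposited table with control probe sets was not used. Groups followed the labelled line.

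Intensities were floored at 16 and transformed to log2. The 20416 of 40832 probes with the higher mean log2 intensity were fitted with limma 3.58.1 (R 4.3.3) on line and replicate number, with 3 residual and 3.2 prior degrees of freedom. Variances were moderated by empirical Bayes, and p-values were adjusted by Benjamini-Hochberg over the tested probes. Deviations of replicate 2 from replicate 1 correlated between lines with r of 0.735 to 0.845 in 6 of 6 pairs. These values were not normalized, and array medians differed by replicate number in every line. Pairing of the samples and a scale shift shared by all arrays of a replicate number therefore cannot be told apart by this r. On simulated data for D62-A/MB against MB (20416 probes, 200 of them changed), the fit recovered 20.5% of 2-fold and 79.5% of 4-fold changes at an adjusted p under 0.05 and 2-fold, and 0% and 55% at an adjusted p under 0.01, with at most 4 false calls. The changed probes were drawn only from probes bright in MB, with normally distributed noise. Recovery of changes nearer the floor was not measured.

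Probes were named through the platform annotation and RefSeq (ASM3414082v1, used for names only). Of the probes, 15295 lay in 1 gene, 436 in several and 25101 in none, and the last 2 kinds were not named. The brightest probe represents a gene. Genes named are the 15 with a symbol per direction with the largest smaller difference over the replicate numbers and at least 32 units on both arrays of the brighter line, 10 per direction against the other CMS lines by the same kind of ranking, members of 28 gene lists, genes near MB in D62-A/MB alone, and leading genes without a symbol, which were chosen after their values were seen. Members and lists were chosen with earlier results of these data known. Python 3.11.15 with pandas 2.3.3 and matplotlib 3.10.9 made tables and figures. Alternatives were other normalizations, floors, filters, thresholds and fits, and leaving out each array.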

Additional observations from a re-analysis of the deposited data

Results flagged for a closer look

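Genes were looked at again where both D62-A/MB differences from MB had one sign and both differences of another CMS line had the opposite sign. PDC1 had a difference from MB of 2.01 log2 units in D62-A/MB (adjusted p = 0.0951), against -0.94 for XQZ-A/MB (-1.24 and -0.64 in the 2 replicate numbers), and the D62-A/MB minus XQZ-A/MB difference was 2.95 (limma, adjusted p = 0.129). RR9 had a difference from MB of -1.16 in D62-A/MB, against 0.23 for ZS97-A/MB (0.18 and 0.27), and the D62-A/MB minus ZS97-A/MB difference was -1.39 (adjusted p = 0.115). GH3.5 had -1.21 in D62-A/MB, against 0.41 for ZS97-A/MB (0.61 and 0.21), and the D62-A/MB minus ZS97-A/MB difference was -1.62 (adjusted p = 0.100). None of these 3 differences between lines passed an adjusted p of 0.05.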

How the results depend on the processing

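The count of D62-A/MB against MB at an adjusted p under 0.01 and 2-fold, 0 probes, became 1 after quantile normalization, 46 after median scaling, 122 (114 lower, 8 higher) with no floor and 1 added, 114 (105 lower, 9 higher) with a floor of 8, 1 without the filter, 1 with only probes above 16 on all arrays, 2 with a mean-variance trend, 6 with the probes chosen by mean linear intensity and 1 without both the replicate block and the filter (these last 2 chosen after seeing the data), and 304 at an adjusted p under 0.05. It was 0 with no replicate block, with a floor of 32, with the D62-A/MB and MB arrays only and by the methods' t-test after adjustment, which at an unadjusted p under 0.01 and 2-fold had 16 lower and 12 higher. Leaving out single arrays gave 0 to 34. The count of 304 at an adjusted p under 0.05 became 503 with no floor, 516 with a floor of 8, 0 with a floor of 32, 3 without the filter, 0 with no replicate block, 3 without both, 0 with the D62-A/MB and MB arrays only and 1 by the methods' t-test, and 0 to 661 without single arrays. The count of 305 probes 2-fold apart in both replicate numbers was 197 with a floor of 32, 1125 at 1.5-fold and 37 at 4-fold; a single replicate number gave 861 to 1413. Against the other CMS lines, 0 probes were called except without D62-A/MB replicate 1 (0 to 58 over the arrays left out). Alternatives were run for 55 named genes. GAMYB, MTR1 and MADS1, named above with small or overlapping differences, were not among them, so the stability of their signs was not checked. Of 1082 values of the 55 genes, 2 changed sign, both of LOC4349612. Its difference from MB ran between -0.99 and 1.29 over the arrays left out (-0.66 without D62-A/MB replicate 2). In 13 of the genes an alternative passed an adjusted p under 0.01 and 2-fold. The causes were not tested. Values near 16 units have little room above background and limit what can be seen there.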

Other observations

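In the gene order of RefSeq, 6 of the 156 lower genes (3.85%) stood next to another lower gene among the genes tested, against 309 of all 9931 placed genes (3.11%).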
